A study of Mus musculus with 15 samples.

Results

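The protein kinases and F-box proteins that control how long clock proteins last were described across 7 genes, Csnk1a1, Csnk1d, Csnk1e, Gsk3b, Btrc, Fbxw11 and Fbxl21, chosen by name for that role out of the 23235 genes of the expression table. RNA was sequenced from the cortex of 9 adult male mice, and peaks of chromatin isolation by RNA purification (ChIRP), in which biotinylated oligos pull down an RNA with the DNA it lies on, were taken from 5 libraries of adult brain. The WT groups were C57BL/6J mice and the Snord116del groups were heterozygous (+/-) mice of the strain B6(Cg)-Snord116tm1.1Uta/J that had inherited the deletion from their father, the parent whose copy of the locus is the active one. Per the paper, the RNA-seq mice of the 2 genotypes were littermates, from heterozygous fathers and WT mothers. Cortex came from 3 WT and 2 Snord116del mice at zeitgeber time (Zt) +6, during the light hours, and from 2 WT and 2 Snord116del mice at Zt +16, during the dark hours. The deletion is carried by all cells throughout life, so none of the groups separates the adult cortex from development or from other organs. The ChIRP libraries used oligos against 116HG, the long non-coding host RNA of the Snord116 snoRNAs, on 2 WT brains and 1 Snord116del brain, or non-specific control (NSC) oligos on 1 brain of each genotype.

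In the circadian clock PER and CRY proteins accumulate, repress their own transcription and are then destroyed, and the time this takes helps to set the length of the cycle. Casein kinase 1 delta and epsilon, encoded by Csnk1d and Csnk1e, phosphorylate PER proteins and so mark them for destruction, while GSK3 beta, encoded by Gsk3b, phosphorylates several clock proteins, among them REV-ERB alpha and CRY2. The F-box proteins are the part of an SCF ubiquitin ligase that recognises its target: Btrc and Fbxw11 encode the beta-TrCP proteins, which bind phosphorylated PER and also phosphorylated beta-catenin, and Fbxl21 encodes a partner of CRY proteins. Csnk1a1 encodes casein kinase 1 alpha, best known, with GSK3 beta, as a kinase of beta-catenin.

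The expression table holds 1 pooled value per gene and group in FPKM (fragment counts divided by transcript length and by the size of the library), not 1 per mouse. The spread between mice therefore cannot be seen, and no test across mice could be made from these values. The q-values of the authors' own comparisons, deposited beside them, were not used. Each difference below is one between pooled group values. A gene was tested against a fold rule if it averaged 1 FPKM or more over the groups, which 10297 genes and 6 of the 7 passed. It was counted as higher or lower where FPKM + 1 differed 1.5-fold or more and the higher group reached 1 FPKM, and differences are given as log2(FPKM + 1), which understates those of low genes. No read counts per gene are in the table, so how many fragments lie behind a value is unknown. The paper does list the total reads of each RNA-seq library, and these were not used here. The library with the fewest reads came from a Snord116del mouse taken during the light hours. What part library depth had in the group values was not tested.

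The group values were not on 1 scale. Their sum over all genes was 159300 (WT, Zt +6), 160199 (Snord116del, Zt +6), 216422 (WT, Zt +16) and 342188 (Snord116del, Zt +16), and Gapdh, a glycolysis gene, stood at 1386, 843, 1694 and 3368 FPKM in that order. The median difference between Snord116del and WT at Zt +6 over all tested genes was 0.57, and it became -0.06 with the groups set to the same median, 0.03 after quantile normalization, 0.01 with the trend on transcript length removed and 1.21 with the groups set to the same Gapdh level. Snord116 itself, a gene of short snoRNAs, was listed at 0 FPKM in all 4 groups and could not check the genotypes. For both Snord116del mice at Zt +6 and 1 of the 3 WT mice at that time, the labels name an earlier version of the table than for the rest, and whether that goes with other handling cannot be told apart from the group.

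Csnk1a1 was the most abundant of the 7 in each group, with 21.1 (WT) and 39.6 (Snord116del) FPKM at Zt +6 and 18.6 and 25.9 FPKM at Zt +16. It made up 41.7%, 45.6%, 36.2% and 35.9% of the summed FPKM of the 7 genes in that order. Fbxl21 was the lowest in each group, at 0.234, 0.527, 0.0910 and 0.137 FPKM, and with a mean of 0.247 it was left out of the fold rule. The gap between these ends was wide: in WT at Zt +6 the level of Csnk1a1, per length, was 90.3 times that of Fbxl21.

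Csnk1d was measured at 6.69 (WT) and 10.9 (Snord116del) FPKM at Zt +6 and at 7.13 and 11.0 FPKM at Zt +16. Csnk1e, its closest relative, was at 5.90 and 10.3 FPKM at Zt +6 and at 5.60 and 6.58 at Zt +16. The pair lay within 1.13-fold and 1.06-fold of each other at Zt +6 and parted to 1.27-fold in WT and 1.67-fold in Snord116del at Zt +16, with Csnk1d the higher in each group. Gsk3b had the widest range of the 6 tested genes, with 2.77 (WT) and 9.05 (Snord116del) FPKM at Zt +6 and 1.83 and 2.52 FPKM at Zt +16. One group, Snord116del at Zt +6, stood apart for Gsk3b, and the other 3 lay between 1.83 and 2.77 FPKM.

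Among the F-box genes, Btrc was at 7.62 (WT) and 8.47 (Snord116del) FPKM at Zt +6 and at 10.3 and 14.3 FPKM at Zt +16. Fbxw11, which encodes the other beta-TrCP protein, was at 6.40 and 7.89 FPKM at Zt +6 and at 7.84 and 11.6 at Zt +16. For these genes the highest group as deposited was Snord116del at Zt +16. For the 4 kinases it was Snord116del at Zt +6 in 3 cases and, for Csnk1d, either Snord116del group by a margin of 1.01-fold. This contrast depends on the scale of the groups. Set to the same total or the same Gapdh level, Btrc (-0.31 and -1.13) and Fbxw11 (-0.48 and -1.29) were lower at Zt +16 than at Zt +6 in Snord116del. In WT at both times and in Snord116del at Zt +16 the order was led by Csnk1a1 and then Btrc, and Gsk3b had rank 6 of 7. In Snord116del at Zt +6 Gsk3b had rank 4, above Btrc and Fbxw11, and ranks 2 to 6 there were separated by steps of 1.06-fold to 1.14-fold, which cannot be read as an order without the spread between mice.

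**Figure D1:**
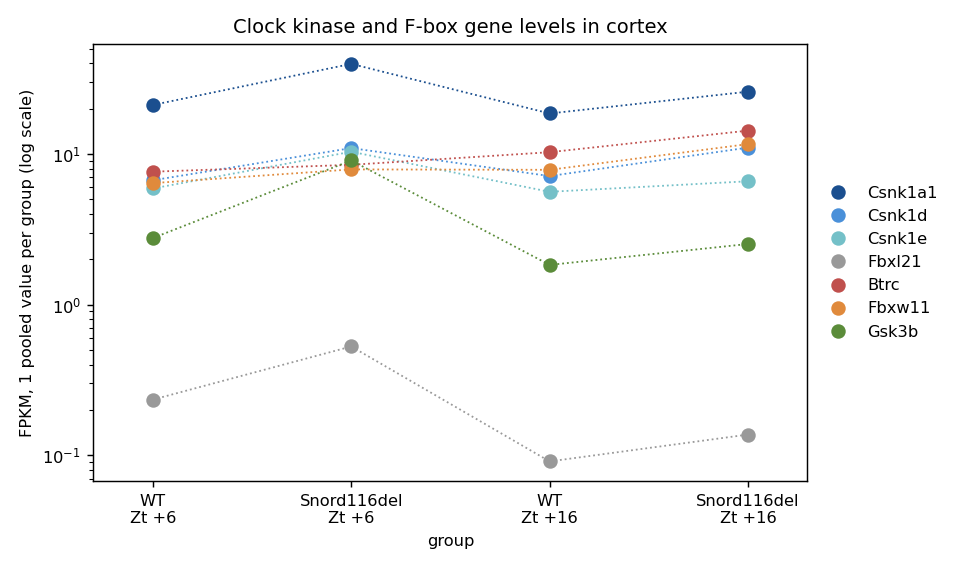
The level of each of the 7 genes in FPKM, on a log axis, is plotted for the 4 groups, with 1 pooled value per group and no error bar, and dotted lines that only join values of 1 gene. Gsk3b runs from 2.77 to 9.05 FPKM between the groups at Zt +6, while Btrc and Fbxw11 have their highest points, 14.3 and 11.6 FPKM, in Snord116del at Zt +16. The values are as deposited, and the groups are not on 1 scale.

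At Zt +6 the 4 kinase genes were higher in Snord116del than in WT by the fold rule, neither beta-TrCP gene was counted, and Fbxl21 was not tested. Gsk3b was 3.27-fold higher in FPKM, a difference of 1.42 on the log2(FPKM + 1) scale, which placed it at percentile 91.5 of the tested genes. The casein kinase genes were nearer to the median of all genes, with differences of 0.88 for Csnk1a1, 0.72 for Csnk1e and 0.63 for Csnk1d. Btrc and Fbxw11 differed by 0.13 and 0.26, below the median of 0.57, and Fbxl21 by 0.31 between 2 values under 1 FPKM. Of the 6 tested genes 4 were thus counted as higher and none as lower, where 49.3% of all tested genes were counted as higher, so the count itself is not far from the background.

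Since the whole distribution was shifted at Zt +6, the differences were also read relative to the median gene. On that footing Gsk3b was at 0.85, Csnk1a1 at 0.30, Csnk1e at 0.15, Csnk1d at 0.06, Fbxw11 at -0.31 and Btrc at -0.44. The split of calls was 4 higher and none lower as deposited, 1 higher (Gsk3b, 0.72) and 1 lower (Btrc, -0.60) with the same median in each group, and 2 higher (Gsk3b, 0.86, and Csnk1a1, 0.81) after quantile normalization. Over all 10297 tested genes these settings gave 5073 higher and 785 lower, 1522 and 2493, and 2285 and 2121. Csnk1d and Csnk1e changed sign with the same median, to -0.11 and -0.02, as did Fbxw11, to -0.46. Csnk1d also did so with the length trend removed, to -0.06. Btrc and Fbxw11 were below 0 after quantile normalization as well, at -0.50 and -0.37. Gsk3b and Csnk1a1 were above 0 in every setting tried at Zt +6, from 0.19 to 2.12 and from 0.07 to 1.58.

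At Zt +16 no member passed the fold rule between the genotypes, where 19% of all tested genes were counted as higher. The 6 tested genes were all above 0 as deposited, from 0.20 for Csnk1e to 0.56 for Csnk1d, with a median of 0.45 beside 0.35 for all tested genes. These signs held with the groups as deposited and with a smaller pseudocount, but all 6 were below 0 with the groups set to the same total or the same Gapdh level, and 4 of 6 after quantile normalization. With the same median, Csnk1e was at -0.20 and Gsk3b at -0.00, and the other 4 were between 0.01 and 0.15. Gsk3b, which differed most at Zt +6, differed by 0.31 at Zt +16, at percentile 44.0.

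**Figure D2:**
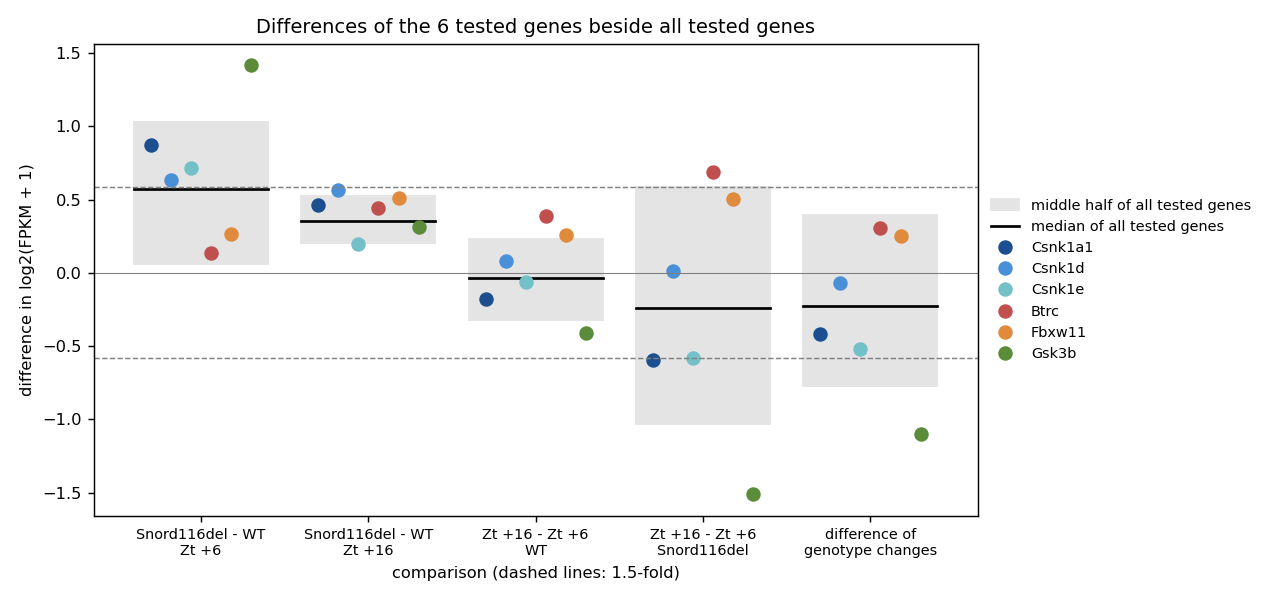
The difference in log2(FPKM + 1) of the 6 tested genes (points) is drawn for the 4 comparisons and for the difference of the genotype changes, over the interquartile range (grey box) and median (black line) of all 10297 tested genes, with dashed lines at 1.5-fold. Gsk3b lies above the box at Zt +6 (1.42) and below it in the time comparison of Snord116del (-1.51), while Btrc (0.69) lies above the box there.

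Between the times within WT, no member passed the fold rule in either direction, where 5.71% of all tested genes were counted as higher and 10.3% as lower at Zt +16. The largest differences were those of Gsk3b, at -0.41, and Btrc, at 0.39, and the 3 casein kinase genes lay between -0.18 and 0.08. Fbxw11 differed by 0.26, and Fbxl21 by -0.18 between 2 values under 1 FPKM. With the groups set to the same total, Csnk1a1 (-0.60) and Gsk3b (-0.74) were counted as lower at Zt +16, where 2886 of all 10297 tested genes were. Setting the same Gapdh level counted Gsk3b alone (-0.62) as lower, and removing the length trend counted Btrc (0.69) as higher. Over all tested genes the former counted 2035 as lower and the latter 351 as higher.

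Within Snord116del, Btrc was higher at Zt +16 than at Zt +6, at 0.69, whereas Csnk1a1 and Gsk3b were lower, at -0.59 and -1.51, where 25% of all tested genes were counted as higher and 39.1% as lower. Csnk1e, at -0.58, was just short of the fold rule and Csnk1a1 just past it. Csnk1d was at 10.9 and 11.0 FPKM, and Fbxw11 differed by 0.51. Btrc changed sign in this comparison with the groups set to the same total (-0.31) or the same Gapdh level (-1.13), and Fbxw11 did so as well (-0.48 and -1.29), while Csnk1a1, Csnk1e and Gsk3b were below 0 in every setting tried. Csnk1a1 was no longer counted with the same median (-0.12), with the length trend removed (-0.01) or with a fold of 2, and Gsk3b not with the length trend removed (-0.07) or with a filter of 5 FPKM, which its mean of 4.04 misses.

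The genotype changes at the 2 times were compared directly by subtracting that at Zt +6 from that at Zt +16. Gsk3b was counted as lower, at -1.10, where 33.5% of all tested genes were counted as lower and the median was -0.22. It lay at percentile 11.7 of the tested genes, and Csnk1e, Csnk1a1 and Csnk1d were at -0.52, -0.42 and -0.07, whereas Btrc and Fbxw11 were at 0.30 and 0.25. Each group enters 2 of the 4 comparisons, so that 1 unusual pooled value moves both of them and this difference. With the same median in each group the split was 1 higher (Btrc, 0.61) and 1 lower (Gsk3b, -0.72), beside 2800 and 1791 of all 10297 tested genes. After removal of the length trend it was 2 higher (Btrc, 1.14, and Fbxw11, 0.69) and none lower, beside 1774 and 1618 of 10165. With the same total it was 4 lower, where 5864 of all 10297 tested genes were lower. With the same Gapdh level all 6 were lower, where 8912 of all tested genes were, so these counts are not far from the background.

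Ratios between members within a group do not depend on a factor that scales the whole group, though the trend with transcript length given below can move them. Gsk3b over Btrc was 0.363 (WT) and 1.07 (Snord116del) at Zt +6, but 0.179 and 0.177 at Zt +16. The summed FPKM of the 4 kinases over that of the 3 F-box genes was 2.56 (WT) and 4.14 (Snord116del) at Zt +6 and 1.82 and 1.77 at Zt +16. Thus the kinase share was lower at Zt +16 than at Zt +6 in either genotype, and the genotypes were 1.62-fold apart at Zt +6 and within 1.03-fold of each other at Zt +16. Btrc over Fbxw11 was flatter, at 1.19 (WT) and 1.07 (Snord116del) at Zt +6 and 1.31 and 1.23 at Zt +16. How far such ratios vary between mice is not known here.

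Transcript length went with the differences over all genes, and its part in those of the 7 genes was not tested beyond the values here. At Zt +6 the median difference between the genotypes was -0.46 for the 731 tested genes of up to 1000 bases and 1.23 for the 1265 genes over 6000 bases. Gsk3b has a longest annotated transcript of 8303 bases and was close to the genes of its length, as were Csnk1a1 (4083 bases, beside 0.92 for 4000 to 6000 bases) and Csnk1d (3675 bases, beside 0.64 for 3000 to 4000 bases). Btrc, with 6323 bases, differed by 0.13 where genes of its length had the median of 1.23. Fbxw11, with 4019 bases, differed by 0.26 where the median of its range was 0.92. The lengths of Fbxw11 and Csnk1a1 are just past the limit of 4000 bases, and the range below it had a median of 0.64. After the trend was removed at Zt +6, the 4 kinase genes were between -0.06 and 0.19, Fbxw11 was at -0.50 and Btrc was counted as lower, at -0.95.

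The same held in reverse for time within Snord116del. There the median difference was 1.43 for the genes of up to 1000 bases and -1.44 for those over 6000 bases. Gsk3b, at -1.51, was again near the median of its length range. Btrc, at 0.69, and Fbxw11, at 0.51, were above 0 where the medians of their ranges were -1.44 and -0.81. Fbxw11 is just past the limit of 4000 bases, and the range below it had a median of -0.35. Removing the trend left Gsk3b at -0.07 and put Btrc at 1.84 and Fbxw11 at 1.06. At Zt +16 the genotype difference went the other way with length and less steeply, from 0.59 in the shortest genes to 0.22 in the longest.

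**Figure D3:**
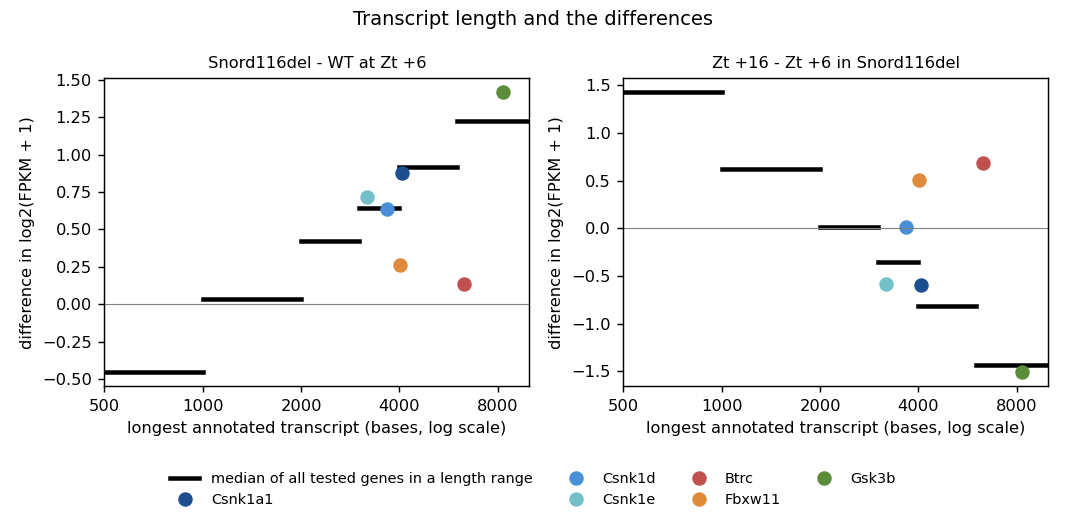
The difference in log2(FPKM + 1) between the genotypes at Zt +6 (left) and between the times in Snord116del (right) is plotted against the longest annotated transcript in bases, on a log axis, for the 6 tested genes (points), with the median of all tested genes in each length range (black bars; the first and last ranges have no outer limit). Gsk3b lies near the bar of its range on either side, at 1.42 beside 1.23 and at -1.51 beside -1.44, and Btrc lies away from it, at 0.13 and 0.69.

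**Figure D4:**
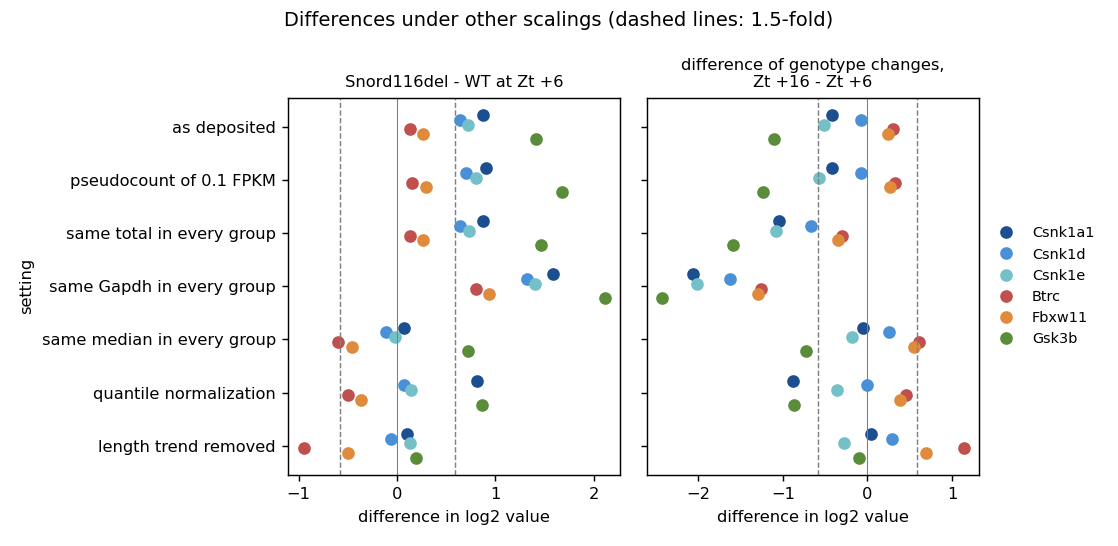
The difference of each tested gene between the genotypes at Zt +6 (left) and the difference of the genotype changes (right) are drawn for the table as deposited and for 6 other settings, with dashed lines at 1.5-fold. At Zt +6 Gsk3b stays right of 0, from 0.19 to 2.12, while Btrc runs from -0.95 to 0.80.

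Other genes of the same pathways, 48 in 7 lists of which 47 were tested, gave 30 higher and 3 lower in Snord116del at Zt +6, where 49.3% of all tested genes were counted as higher. Their median was 0.91 beside 0.57 for all tested genes. With the same median in each group the counts were 10 and 9, after quantile normalization 15 and 6, and with the length trend removed 6 and 5. At Zt +16, where 19% of all tested genes were counted as higher, 11 were higher and none lower as deposited, 1 and none with the same median, and none and 6 with the same Gapdh level.

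Of the other casein kinase genes, 4 of 6 were higher and 1 lower in Snord116del at Zt +6, beside 49.3% of all tested genes higher. The counts were 1 and 1 with the same median and none either way with the length trend removed. Csnk1g1, a membrane-bound casein kinase 1 gene, was at 1.08 (WT) and 3.75 (Snord116del) FPKM, a difference of 1.19 that was above 0 in every scaling tried. Csnk2b, the regulatory subunit of casein kinase 2, was at 56.2 and 35.6 FPKM, a difference of -0.64 that turned to 0.06 with the same Gapdh level. Of the other clock kinases, 6 of 7 tested were higher and none lower, beside the same 49.3%, led by Dyrk1a (1.26), which primes CRY2 for GSK3 beta. With the same median 1 was higher and 1 lower, and with the length trend removed none was counted either way. Gsk3a, the paralog of Gsk3b, was at 22.8 and 44.1 FPKM at Zt +6 and at 24.6 and 39.3 at Zt +16, so that it was higher than Gsk3b in each group.

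The genes of SCF ligases, which use F-box proteins, and of CUL4 ligases gave 4 higher and 2 lower of 10 at Zt +6, beside 49.3% of all tested genes higher. With the same median they gave 1 and 4. Fbxw7, another F-box gene, differed by 1.5 and Nedd8, which encodes the ubiquitin-like protein that activates cullins, by -1.57 (268 and 89.9 FPKM). The other gene counted as lower was Skp1a, the adaptor between cullin and F-box protein, at 107 and 67.5 FPKM. Between the times in Snord116del, Nedd8 was at 2.86 and Fbxw7 at -1.70, and these signs, like those at Zt +6, were the same in each scaling tried.

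Among the proteins these enzymes act on, 7 of 9 clock substrate genes were higher in Snord116del at Zt +6 and none lower, beside 49.3% of all tested genes higher, and none was counted in either direction at Zt +16, beside 19%. The counts at Zt +6 became 2 higher and 1 lower with the same median and 1 and 1 with the length trend removed, and at Zt +16 2 were lower with the same Gapdh level. Clock, a transcription factor of the positive limb, led at Zt +6 with 1.56. In WT 2 of the 9 were counted as lower at Zt +16 and none as higher, beside 10.3% and 5.71% of all tested genes. They were Per1 (-1.12), a repressor that light induces, and Nr1d1 (-0.81), which encodes REV-ERB alpha. Of the beta-catenin complex and its partners, 5 of 7 were higher at Zt +6, led by Apc (1.85), a part of the complex in which the Csnk1a1 and Gsk3b products act. The phosphatase catalytic subunits gave 3 of 6 higher, led by Ppp1cc (1.5), and of the deubiquitinases Usp7 (1.63) was higher and Usp2 was not counted. With the same median the beta-catenin list had 2 higher and none lower, and the phosphatases 2 and 2.

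Marker genes of the cell types of the brain differed as well. Of 28 tested markers 21 were higher and none lower in Snord116del at Zt +6, and the counts were 11 and none at Zt +16, beside 49.3% and 19% of all tested genes higher. With the same median they became 9 and 3 at Zt +6 and none either way at Zt +16, and with the same Gapdh level 5 were lower at Zt +16. The summed level of the 5 astrocyte markers was 89.2 (WT) and 279 (Snord116del) FPKM at Zt +6 and 45.0 and 65.1 FPKM at Zt +16, and that of the 5 neuron markers was 672, 931, 544 and 748 FPKM in that order. The choroid plexus markers, a tissue outside the cortex, summed to 203 and 185 FPKM at Zt +6 and to 25.8 and 30.9 at Zt +16, nearly all of it Ttr. The neuron marker Snap25, at 417 to 590 FPKM, shows neural tissue but does not tell cortex from other regions of the brain. The 5 striatum markers, of a region beneath the cortex, summed to 19.4 (WT) and 38.8 (Snord116del) FPKM at Zt +6 and to 20.9 and 39.3 FPKM at Zt +16, and 4 of the 4 tested were higher at Zt +6 and 3 at Zt +16, but 2 and none with the same median. What part these shifts had in the values of the 7 genes was not tested, and in whole tissue fewer cells of a type cannot be told apart from less RNA per cell.

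The genes whose profile over the 4 groups was most like that of a member were found by the distance between log2(FPKM + 1) profiles centred on their mean. They were Dcaf7 and Apc2 for Csnk1a1 (0.0208 each), Glmn and Pgrmc2 for Csnk1d (0.0240 and 0.0276), and Pigc and Grm8 for Csnk1e (0.0118 and 0.0307). For the F-box genes they were Morn4 and Nudt1 for Btrc (0.0128 and 0.0217), and Snx10 and Six3 for Fbxw11 (0.0305 and 0.0312). Gsk3b was closest to Eif4g2 and Fbxo33 (0.0310 and 0.0387). Among the members themselves, Btrc and Fbxw11 were nearest to each other (0.190), and 405 tested genes were nearer to Btrc than Fbxw11 was.

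Peaks of the ChIRP libraries were assigned to a gene where they lay inside it or within 2 kb. Of the 78033 peaks of WT 116HG replicate 1, 82 lay at 6 of the 7 genes, and 59.3% of all annotated genes had such a peak. Among genes averaging 1 FPKM or more it was 93.6%, beside 6 of the 6 members that pass this filter. Of the 11145 peaks of replicate 2, 4 lay at 3 of the 7, where 13.9% of genes had one. The control libraries had 1 peak at the 7 genes, where 10.8% of genes had any control peak: it was called with NSC oligos in the Snord116del brain, 121 bases past the end of Csnk1d, with a fold over input of 21.0. Neither the NSC oligos in WT nor the 116HG oligos in Snord116del gave a peak at a member. The control lists are far shorter than that of replicate 1, with 3648 peaks (WT NSC), 1280 (Snord116del 116HG) and 3418 (Snord116del NSC). Few or no control peaks at 7 genes therefore do not show that the replicate 1 peaks are specific to 116HG. Fbxl21, listed under 1 FPKM in each group, had no peak in any library.

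By gene, replicate 1 had 19 peaks at Btrc, 18 at Gsk3b, 15 at Csnk1a1, 14 at Csnk1d, 10 at Csnk1e and 6 at Fbxw11. Per 10 kb of the gene with 2 kb on either side these were 1.09, 1.12, 3.87, 3.80, 3.33 and 0.555, beside a median of 1.48 over the tested genes. In all, 71 of the 82 peaks touched an annotated exon (86.6%), much as in the whole list, where 85.8% of the peaks inside genes did. The middle of 35 peaks lay in coding sequence, of 34 in a UTR, of 2 in another exon, of 10 in an intron and of 1 outside the gene. Since exons are 3.73% of Btrc and 6.26% of Gsk3b, the share of peak bases that was exonic, 67.0% and 98.7%, was far above the exons' share of the gene. For Fbxw11, with exons over 4.16% of the gene, it was 97.4%.

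The peaks had a fold over input of 23.7 to 215, with a median of 61.6 beside 55.3 for the whole list. The highest was at the first exon of Csnk1a1, and 19 of the 82 reached the upper quartile of the list, 85.4. Of the 11 peaks that touched no exon, 8 were in introns of Btrc, 2 in introns of Csnk1a1 and 1 outside Csnk1e. Among those of Btrc, 4 formed a cluster of under 1 kb whose middle 32 bases were found 3 to 12 times in the genome. Over all members, the middle 32 bases of a peak were found once in the genome for 76 of the 82.

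Of the genes with printed sequence, Csnk1d lies at chr11:120819779-120852644 (-), Csnk1e at chr15:79248282-79274349 (-), Gsk3b at chr16:38089087-38246170 (+), Btrc at chr19:45438224-45607831 (+) and Fbxw11 at chr11:32542724-32646816 (+) in NCBIM37 (mm9). To show what the peaks cover, the shortest replicate 1 peak that touched coding sequence and no UTR is printed for 5 of the members, on the strand of the gene. Bases in an exon of any annotated transcript are in capitals and the others in lower case. The positions are chr11:120844542-120844664 (-) for Csnk1d, chr15:79260496-79260588 (-) for Csnk1e, chr16:38191609-38191698 (+) for Gsk3b, chr19:45587886-45588026 (+) for Btrc and chr11:32622058-32622154 (+) for Fbxw11, in NCBIM37 (mm9).
Csnk1d: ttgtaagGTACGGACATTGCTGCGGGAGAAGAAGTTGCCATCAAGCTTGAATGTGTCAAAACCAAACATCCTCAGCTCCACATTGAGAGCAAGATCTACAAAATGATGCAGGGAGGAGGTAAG
Csnk1e: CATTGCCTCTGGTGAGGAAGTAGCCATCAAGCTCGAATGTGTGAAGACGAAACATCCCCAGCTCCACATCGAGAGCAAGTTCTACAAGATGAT
Gsk3b: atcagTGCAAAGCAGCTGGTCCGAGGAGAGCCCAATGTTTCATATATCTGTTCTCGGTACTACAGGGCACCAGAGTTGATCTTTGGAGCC
Btrc: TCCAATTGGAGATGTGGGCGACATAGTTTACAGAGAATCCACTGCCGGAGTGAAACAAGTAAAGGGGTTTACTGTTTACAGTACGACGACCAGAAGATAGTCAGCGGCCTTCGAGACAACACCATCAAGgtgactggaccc
Fbxw11: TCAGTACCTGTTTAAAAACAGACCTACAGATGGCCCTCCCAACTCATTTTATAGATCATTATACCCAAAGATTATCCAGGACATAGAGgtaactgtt
Having been chosen for touching coding sequence, these peaks tend to be exonic by that choice. The Csnk1d peak held 116 bases in capitals and 7 others, the Gsk3b peak 85 and 5, the Btrc peak 129 and 12 and the Fbxw11 peak 88 and 9. That of Csnk1e lay wholly inside an exon. For Csnk1d the exon merged over transcripts runs from 7.987 to 8.473 kb from the start of the gene, past the peak. Its capitals therefore do not mark where the coding exon ends. The exon bases shown for Csnk1d and Csnk1e came from matching exons, with 79 of 93 aligned bases the same, so that the same stretch of the kinase was covered in either paralog.

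Because members are paralogs, reads could in part be shared. Over their coding sequences Csnk1d and Csnk1e were identical at 77.4% of aligned bases with a longest shared run of 23 bases, and Btrc and Fbxw11 at 74.2% with 22 bases. Csnk1a1 was further from Csnk1d (65.8%) and Csnk1e (63.9%). The longest runs are shorter than the 32 bases used above to ask whether a peak is unique.

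A peak was taken as replicated where the WT 116HG replicates had peaks within 10 kb of each other. Of the 7 genes 3, Csnk1a1, Csnk1e and Gsk3b, had a replicated peak, where 10.9% of all annotated genes did. Among annotated genes averaging 1 FPKM or more 18.03% did, beside 3 of the 6 members that pass this filter. These members had more replicate 1 peaks that could be replicated, with a median of 14.5 per gene beside 4. The share was not matched for that, so it cannot be read as an enrichment. No peak of the replicates overlapped at a member: with direct overlap required the count was 0, within 2 kb it was 1 (Csnk1a1), and with only the replicate 1 peaks at or above a fold of 85.4 it was 1 (Csnk1a1). In that order 3.33%, 5.41% and 5.39% of all annotated genes had such a peak, so these counts out of 7 are not far from the background. The call thus rests on 4 short peaks of replicate 2, of which none touched an exon, 3 lay in an intron and 1 outside the gene, and in the whole list of replicate 2 the share of gene peaks that touched an exon was 7.03%.

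These replicate 2 peaks carry the call and are printed below for Gsk3b, with runs of 12 or more of a single base in capitals. They lie upstream of the gene at chr16:38087711-38087763 (+), 2367 bases from a replicate 1 peak in the first exon, and in the first intron at chr16:38094991-38095043 (+), 4307 bases from one.
Gsk3b replicate 2, upstream: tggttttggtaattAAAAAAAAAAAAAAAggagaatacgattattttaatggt
Gsk3b replicate 2, intron: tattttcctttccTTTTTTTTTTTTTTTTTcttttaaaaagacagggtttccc
The Gsk3b peaks held a run of 15 A and of 17 T, and the Csnk1a1 peak of replicate 2, in an intron 501 bases from a replicate 1 peak, held a run of 30 bases of a single letter and had a middle found 6 times in the genome. Runs of at least 12 bases were present in 3 of these 4 peaks, in 42.5% of the list of replicate 2 and in 12.8% of that of replicate 1, and in 7 of the 82 replicate 1 peaks at members.

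**Figure D5:**
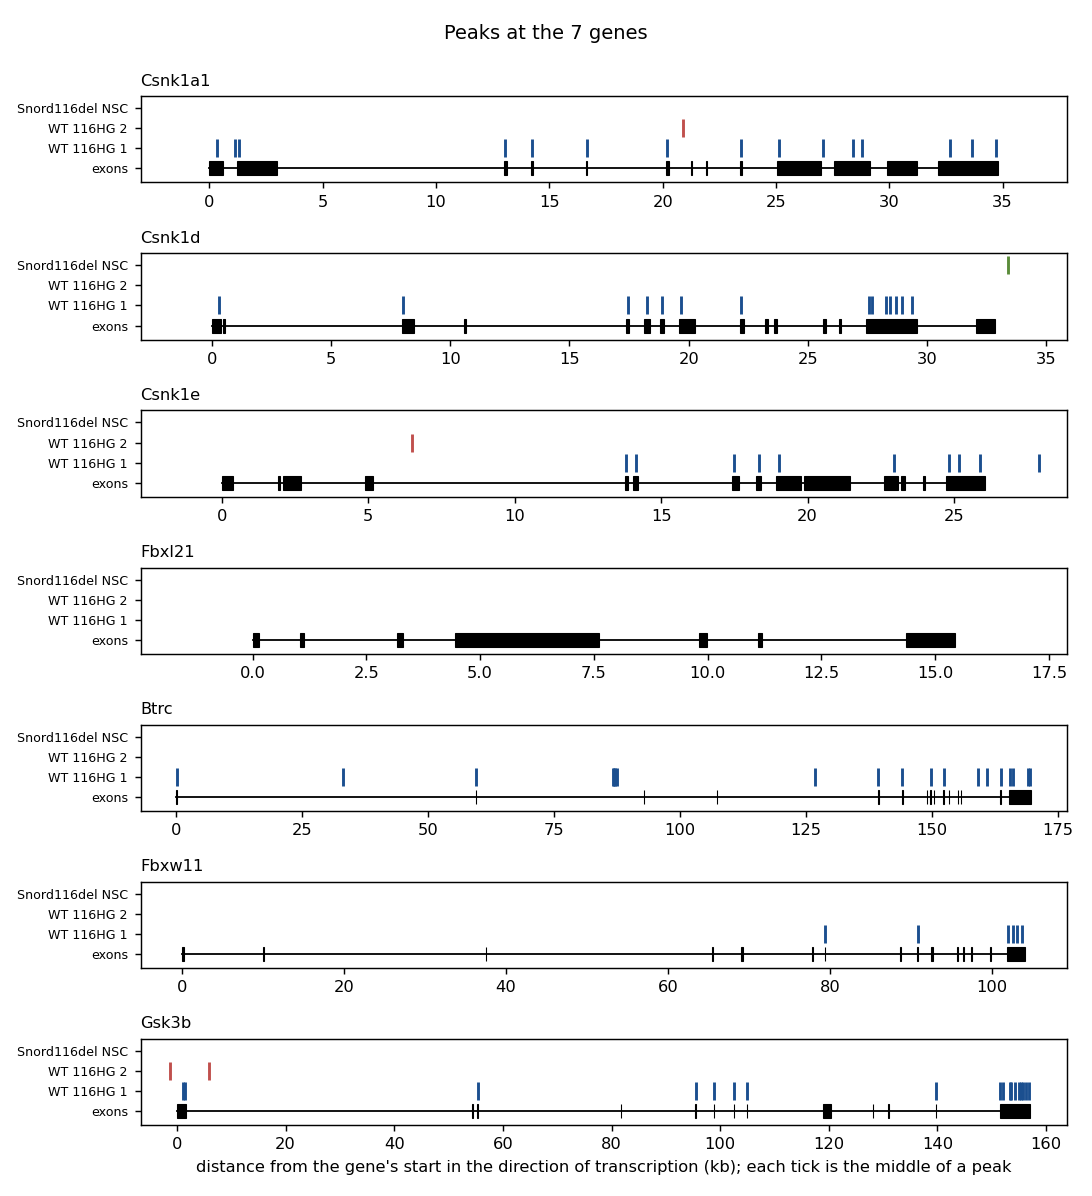
The middle of each peak is drawn as a tick along the 7 genes, by distance in kb from the start of the gene in the direction of transcription, with annotated exons as black boxes and a line for each library with a peak at a member (WT 116HG replicates 1 and 2 and Snord116del NSC; the WT NSC and Snord116del 116HG libraries had none). The 82 ticks of replicate 1 sit mostly over exons, the 4 of replicate 2 sit off the exons, and Fbxl21 has none.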

How the data were processed

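RNA-seq of mouse cortex and ChIRP-seq peak lists of mouse brain were used. Per the methods and the submitters' processing notes, the authors aligned RNA-seq reads with TopHat2 (2.0.5) to mm9 and deposited Cuffdiff (2.0.2) FPKM values, 1 per gene and group, with log2 fold changes and q-values of their own comparisons that were not used here. For ChIRP-seq, the authors aligned reads with Bowtie2 (2.0.0) to mm9, called peaks with MACS (1.4.2) in each library, filtered them on false discovery rate and fold over input, and deposited that fold as a ratio, except for WT 116HG replicate 2, whose list has positions only. The input library was not analysed here.

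Scripts in Python (3.11.15) with pandas (2.3.3) and statsmodels (0.14.6) computed differences of log2(FPKM + 1) and the fold rule, which took the place of limma because the table has group values. Symbols were looked up in a GENCODE annotation on NCBIM37 (mm9), which gave 98.7% of the tested genes a transcript length; the length trend was a lowess fit (fraction 0.3) on log10 length. Starts of peaks are given 1-based. The calls were checked on simulated data. Alternatives were the pseudocount, the filter, the fold, 4 scalings, the length trend and, for peaks, distances, fold and each replicate. The genes and lists were chosen with earlier results of these data known. By the naming rule, all 7 genes, the gene with the largest rise and fall past the fold rule in each pathway list, 2 nearest profiles for each member, and Gapdh could be named, and not all were; a gene and a peak sequence are not reported here; Skp1a, Nr1d1, Gsk3a, Usp2, Snap25 and Ttr were added after their values were seen.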

Additional observations from a re-analysis of the deposited data

How the results depend on the processing

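Counts of members past the fold rule moved by over 1.5 times in these settings. Between the genotypes at Zt +6 (4 as deposited) they were 2 with the same median (1 higher, 1 lower), 2 after quantile normalization, 1 with a fold of 2 and 1, lower, with the length trend removed. In that order 39.0%, 42.8%, 29.7% and 26.1% of all tested genes were counted. At Zt +16 (0) they were 1, higher, with a pseudocount of 0.1 FPKM and 1, lower, with the same Gapdh level, beside 30.5% and 8.72% of all tested genes. Over time in WT (0) they were 2 with the same total, 1 with the same Gapdh level and 1 with the length trend removed, beside 28.5%, 21.0% and 10.1% of all tested genes. Over time in Snord116del (3) they were 6, all lower, with the same Gapdh level, where 8768 of all 10297 tested genes were lower. With a fold of 2 the count there was 1, beside 42.4% of all tested genes. For the difference of the genotype changes (1) they were 0 with a mean of at least 5 FPKM, 2 with the same median, 4 with the same total, 2 after quantile normalization, 6 with the same Gapdh level and 2 with the length trend removed. In that order 56.2%, 44.6%, 65.3%, 46.6%, 87.7% and 33.4% of all tested genes were counted.

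At Zt +6 Csnk1d turned to -0.11 with the same median and -0.057 with the length trend removed, and Csnk1e to -0.019 with the same median. Over time in Snord116del Btrc turned to -0.31 with the same total and -1.13 with the same Gapdh level. Over all tested genes the calls at Zt +6 were 5073 higher and 785 lower as deposited, but 1522 and 2493 with the same median and 1283 and 1367 with the length trend removed, and at Zt +16 1959 and 21 as deposited but 17 and 881 with the same Gapdh level. In the time comparison of Snord116del they were 2571 and 4022 as deposited and 3593 and 2713 with the same median. The cause of these shifts was not tested. Of the values of single members, 219 kept their call or its absence and 49 gained or lost one with no called value turning; the 5 values above are the called ones that changed sign, and values short of the fold rule also did.

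Members with a replicated peak (3) were 0 with direct overlap, 1 within 2 kb and 1 if replicate 1 peaks had to reach its upper quartile of fold. The shares of all annotated genes there were 3.33%, 5.41% and 5.39%. With a replicate left out, any peak of the other was counted, which no longer asks for replication. The members were then 3 without replicate 1 and 6 without replicate 2, beside 13.9% and 59.3% of all annotated genes. No paired analysis was possible because the table holds 1 pooled value per group. Leaving out a mouse was likewise not possible for the RNA-seq values, and the spread between mice, which limits each comparison, is not known.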
